A study of Mus musculus with 8 samples.

Results

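Transcript levels of molecular chaperones of the Hsp, Dnaj and Cct families were followed along monocyte development in mouse bone marrow cells. The genes were chosen by name (Hspa, Hspb, Hspd, Hspe, Hsph and Hsp90 genes, Dnaja, Dnajb and Dnajc genes, and numbered Cct genes, without pseudogenes) and by a level of at least 1 TPM in at least 2 of the 8 libraries. TPM is a measure of transcript abundance per length that sums to 1000000 in a library (999999 in 1, from rounding). The rule kept 67 of the 48709 genes listed, out of 84 with a matching name. The 17 left out included 6 listed at 0 in every library, and nearest outside the threshold was Hspb9 with a second highest level of 0.99 TPM, while Hspa1l (second highest level 2.31 TPM) and Dnajc6 (2.59 TPM) lay nearest inside. The 67 genes carry 66 names, because Hspa14 is listed under ENSMUSG00000109865 and ENSMUSG00000051396. These are overlapping loci on the minus strand of chromosome 2 (3488850 to 3512814 and 3504527 to 3512790, mm10), and the second is called Gm45902 in the GENCODE M21 annotation, so the split of reads between them is uncertain. By role the genes fall into 3 Hsp90 genes, 13 of the Hsp70 family, the 2 genes of the mitochondrial chaperonin, 7 subunits of the cytosolic chaperonin, 3, 10 and 25 DnaJ proteins of classes A, B and C, 2 small heat shock proteins, and 2 that share only the name (Hspbp1 and Hspbap1).

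Chaperones bind unfolded or newly made proteins and keep them from aggregating. Hsp70 proteins hold and release short exposed stretches in a cycle driven by ATP, DnaJ proteins bring them their clients and start the ATP step, and Hsp90 proteins act later on signalling kinases and receptors. Chaperonins are closed barrels in which a protein folds alone, and several chaperone genes are switched on by the transcription factor Hsf1 in heat or other protein stress, or by the unfolded protein response when the endoplasmic reticulum (ER) is overloaded.

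The study measured polyadenylated RNA in 5 groups: MDP (monocyte-dendritic cell progenitors, 1 library, genotype tag MDP_WT), cMoP (common monocyte progenitors, 2 libraries, cMOP_WT), Ly6Chi monocytes (2 libraries, tagged wild type), Ly6Clo monocytes (1 library, wild type) and Upf2 knockout Ly6Chi monocytes (2 libraries, tagged LyC6hi_KO). Descriptions of the cMoP and Ly6Chi control libraries carry FL_FL, that is, a floxed allele, whereas their genotype tags say wild type. Upf2 acts in nonsense-mediated decay, the pathway that removes transcripts with premature stop codons, and the series title places the question in how intron retention changes gene expression along this path. No Cre driver, age or pooling of animals is given in the sources used here. The source names give bone marrow and the growth protocol primary cells, but a tag calls the cells a monocytic line. The labels do not say whether replicates are separate animals. The p-values therefore rest on the spread between these samples alone, which may be technical. All groups were untreated apart from the knockout.

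Upf2, the targeted gene, was read at 23.1 TPM in MDP, 19.7 and 18.8 for the cMoP pair, 20.2 and 18.2 for the control Ly6Chi pair, 19.2 for Ly6Clo and 20.4 and 22.4 for the knockout pair. Its level was thus not lower in the knockout. Reads spliced from its exon 2 to exon 3 numbered 10 and 13 in knockout monocytes, 41 and 45 in their controls, and 16 to 59 in the other libraries. The labels used here do not say which exons were deleted. For the other labels a listed marker each is given. Flt3 was 197 TPM in MDP and at most 10.3 in the other libraries. Mpo was 12416 and 10338 TPM in the cMoP libraries, 3876 in MDP and at most 115 in the monocytes. Ly6c2 was at least 3439 TPM in every cMoP and Ly6Chi library, and Treml4 was 659 TPM in Ly6Clo and at most 20.1 elsewhere. Not all listed markers followed the labels. Of the other MDP markers, Kit and Cd34 were highest in MDP. Csf1r and Cx3cr1 were at 163 and 48.6 TPM in MDP and 1629 and 605 in Ly6Clo. The MDP markers summed to 914 TPM in MDP and 2248 in Ly6Clo. Sums of the cMoP, Ly6Chi and Ly6Clo markers were highest in their own groups. Each library held 34353668 to 44104702 spliced reads (the larger count of each intron's ends, summed over the introns listed). Reads leaned to the 3′ end of transcripts to different degrees: spliced reads of the 3′ part over those of the 5′ part, as a log2 ratio with its median over 4483 genes, came to 0.34 in MDP, 0.58 and 0.85 for the cMoP pair, 0.32 and 0.38 for the Ly6Chi pair, 0.34 for Ly6Clo and 0.80 and 0.56 for the knockout pair.

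Chaperone transcripts made up 1.42% of all TPM in MDP, 1.22% and 2.07% for the cMoP pair, 0.663% and 0.703% for the Ly6Chi pair, 0.758% for Ly6Clo and 1.08% and 0.828% for the knockout pair. Both progenitor groups therefore lay above all monocyte libraries, and the cMoP replicates differed from each other more than the Ly6Chi replicates did. Hspa8, the constitutive cytosolic Hsp70, was the highest chaperone in each of the 8 libraries, with Hsp90ab1 second. The 3 highest carried 42.0% to 50.4% of the summed chaperone TPM in any library.

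The main comparison was Ly6Chi monocytes against cMoP (2 libraries each). Log2 changes are differences of log2(TPM + 1) given relative to the median gene, which moved by 0.19 in this comparison; limma's p belongs to the change before that shift, and the scale understates changes of low genes. Of the 67 chaperone genes, 29 fell and 13 rose at a limma adjusted p under 0.05. Over all 13126 genes tested, 23.3% fell and 32.3% rose, 55.5% in either direction. The median log2 change of the 67 genes was -0.74, on a scale where the median gene is at 0. Without Ly6Chi replicate 1, or without replicate 2, 14 chaperones were called lower and 4 higher (12.3% and 16.5% of all genes without replicate 1, 12.2% and 18.4% without replicate 2). Without either knockout library, which shares the estimate of the spread, 27 were lower and 8 higher (19.3% and 27.1% of all genes without replicate 1). When each library was centred on its median gene, 36 chaperones fell and 7 rose, as did 34.0% and 25.6% of all genes. TPM ranges of the groups did not overlap for 43 lower and 16 higher chaperone genes, where 34.2% and 46.7% of all genes did so. In bulk RNA, fewer cells of a type and less RNA per cell cannot be told apart.

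**Figure D1:**
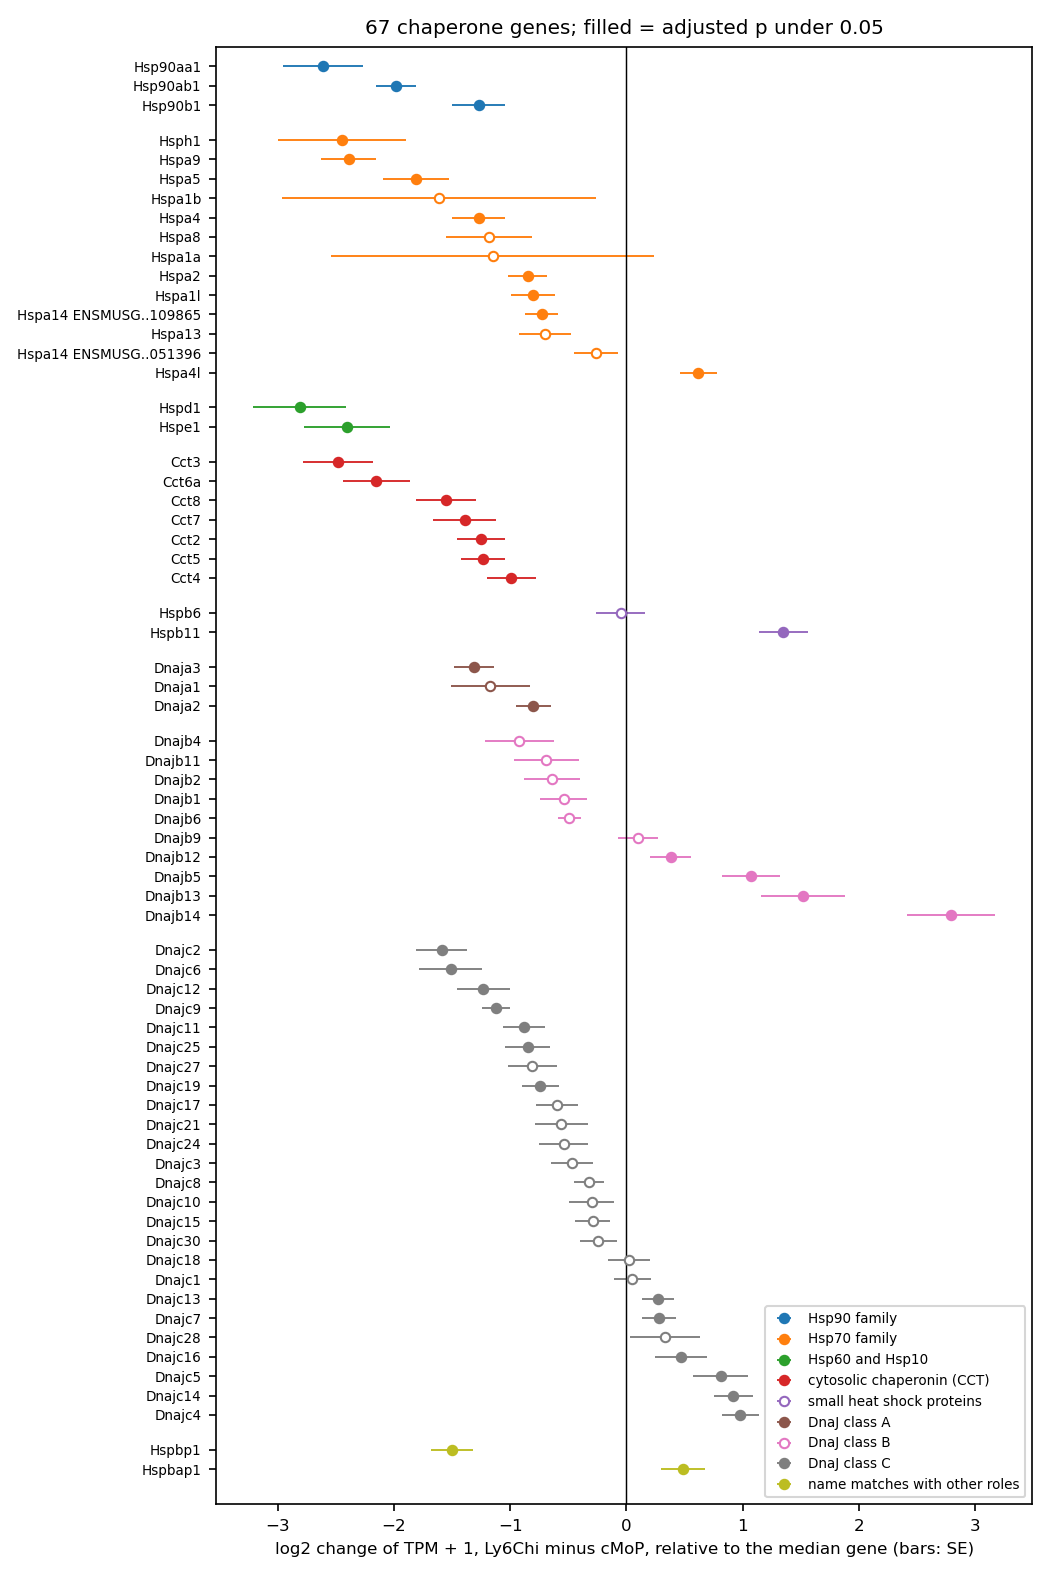
Change of each of the 67 chaperone genes from cMoP to Ly6Chi monocytes (horizontal axis, log2 of TPM + 1 relative to the median gene, 2 libraries a group), grouped by role. Points are estimates, bars the standard error, and filled points passed limma's test at an adjusted p under 0.05: all Hsp90, Hsp60/Hsp10 and Cct genes are filled and left of 0, while classes B and C of the DnaJ proteins lie on both sides.

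Several measures of the libraries moved with this comparison. The 3′ lean was 0.58 and 0.85 in cMoP and 0.32 and 0.38 in Ly6Chi. Neutrophil markers (7 genes, all above 0 in these 4 libraries) summed to 22.3 to 80.9 TPM in cMoP and 337 to 451 in Ly6Chi. Of the Ly6Chi sums, Mmp8 made up 151 and 145 TPM. Cxcr2 overlapped between the groups (1.75 and 0.82 TPM in cMoP, 0.88 and 1.53 in Ly6Chi), and the other neutrophil markers were higher in Ly6Chi. Erythroid markers (5 genes, all above 0) summed to 2.64 to 15.04 and 21.3 to 113 TPM, with Klf1 and Alas2 overlapping between the groups. The 12 immediate early genes, which respond within minutes to stimulation or cell handling, summed to 465 to 1561 TPM in cMoP and 2838 to 5121 in Ly6Chi. Their part in the changes of the chaperones was not tested.

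All 3 Hsp90 genes fell. Hsp90aa1, the stress-responsive cytosolic form, was at 972 TPM in MDP, 757 and 1462 for the cMoP pair, 190 and 203 for the Ly6Chi pair, 222 for Ly6Clo and 348 and 230.1 for the knockout pair. Both Ly6Chi values lay below every progenitor value, and the log2 change was -2.61 ± 0.34 (SE; limma adjusted p = 0.00286). Hsp90ab1, the constitutive cytosolic form, was at 2447 TPM in MDP, 2262 and 2982 for the cMoP pair, 745 and 756 for the Ly6Chi pair, 1007 for Ly6Clo and 1069 and 864 for the knockout pair (log2 change -1.98 ± 0.17, limma adjusted p = 0.000916). Its replicates lay closer together than those of Hsp90aa1. The ratio of Hsp90aa1 to Hsp90ab1 was 0.334 and 0.490 in cMoP and 0.255 and 0.269 in Ly6Chi. Hsp90b1, the form of the ER, showed a smaller change, from 682 and 1123 TPM in cMoP to 424 and 405 in Ly6Chi (-1.27 ± 0.23, limma adjusted p = 0.0113).

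**Figure D2:**
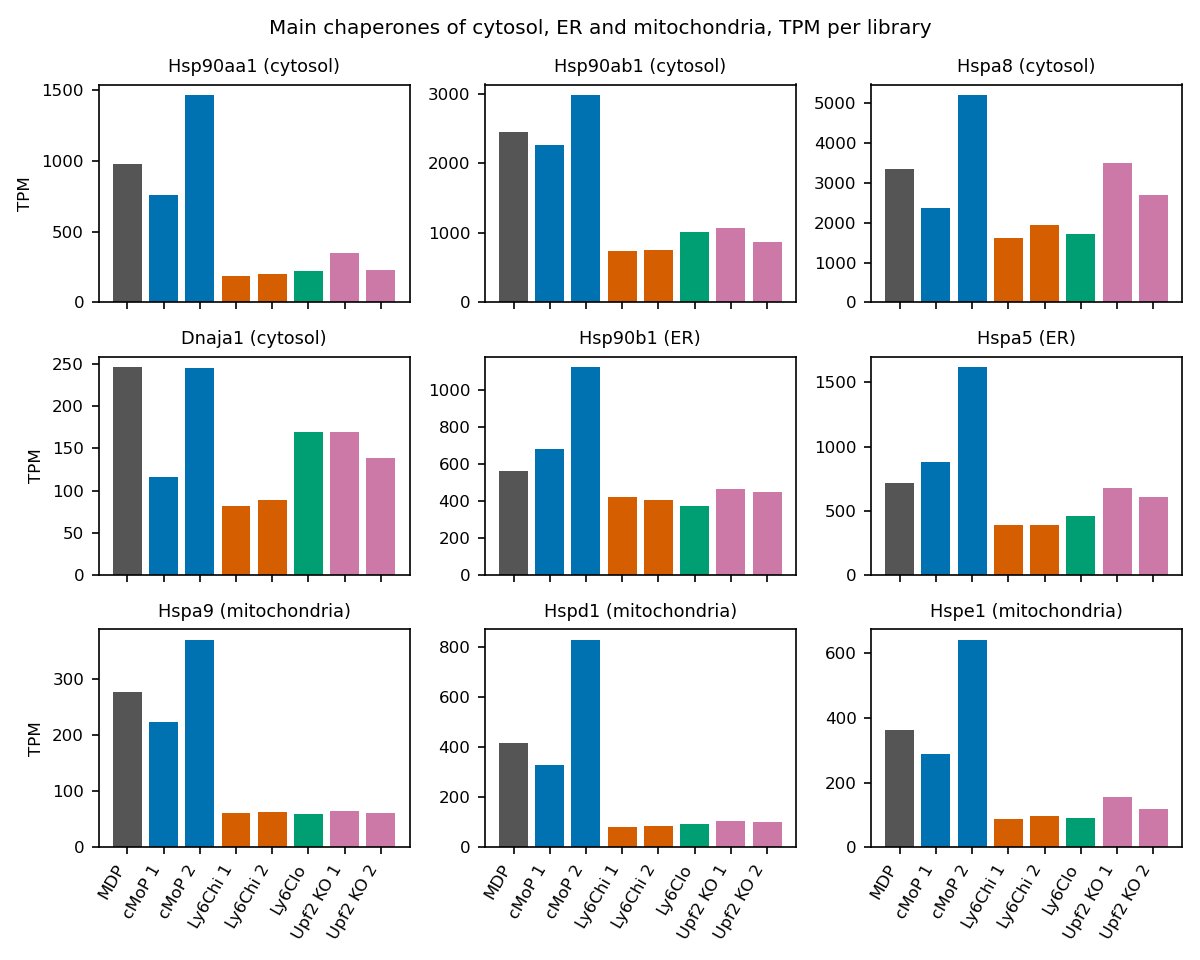
TPM (vertical axes, linear, starting at 0) of 9 main chaperones in each of the 8 libraries; each bar is 1 library and colours mark the group. MDP and cMoP bars stand above the Ly6Chi bars in each panel, and cMoP replicate 2 stands above cMoP replicate 1.

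In the Hsp70 family 7 of 13 genes fell and 1 rose. Hspa9, the mitochondrial Hsp70 that pulls imported proteins through the inner membrane, was at 275 TPM in MDP, 223 and 369 for the cMoP pair, 61.4 and 62.4 for the Ly6Chi pair, 60.02 for Ly6Clo and 64.6 and 60.7 for the knockout pair (log2 change -2.39 ± 0.24, limma adjusted p = 0.00128). The 5 monocyte libraries lay between 60.02 and 64.6 TPM, below every progenitor library. Hspa5, the ER Hsp70 also called BiP, was at 718 TPM in MDP, 882 and 1618 for the cMoP pair, 388 and 389 for the Ly6Chi pair, 458 for Ly6Clo and 680.0 and 604 for the knockout pair (-1.81 ± 0.28, limma adjusted p = 0.00527). Hspa4, a nucleotide exchange partner of Hsp70, went from 181 and 296 TPM in cMoP to 108 and 109 in Ly6Chi (-1.27 ± 0.23, limma adjusted p = 0.0109). The testis-enriched Hspa2 and Hspa1l and the ribosome-associated Hspa14 (ENSMUSG00000109865) fell by 0.85, 0.80 and 0.73. Hspa4l, a relative of Hspa4, was the family's gene that rose, from 10.4 and 11.8 TPM in cMoP to 21.1 and 19.5 in Ly6Chi (0.62 ± 0.16, limma adjusted p = 0.00767). Hspa8 was at 3361 TPM in MDP, 2358 and 5208 for the cMoP pair, 1617 and 1943 for the Ly6Chi pair, 1723 for Ly6Clo and 3496 and 2706 for the knockout pair. Its Ly6Chi and cMoP ranges did not overlap, but the change of -1.18 ± 0.37 did not pass (limma adjusted p = 0.0669).

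Hspd1 and Hspe1, which encode the barrel (Hsp60) and lid (Hsp10) of the mitochondrial chaperonin, both fell, Hspd1 more than any other of the 67 genes. Hspd1 was at 419 TPM in MDP, 329 and 830.0 for the cMoP pair, 82.4 and 86.4 for the Ly6Chi pair, 94.9 for Ly6Clo and 104 and 101 for the knockout pair (log2 change -2.81 ± 0.40, limma adjusted p = 0.00375). Hspe1 was at 362 TPM in MDP, 288 and 640.4 for the cMoP pair, 87.9 and 96.8 for the Ly6Chi pair, 90.0 for Ly6Clo and 155 and 118 for the knockout pair (-2.40 ± 0.37, limma adjusted p = 0.00493). The ratio of Hspd1 to Hspe1 ran from 1.14 to 1.30 in MDP and cMoP and from 0.675 to 1.05 in the monocyte libraries. They lie head to head on chromosome 1, Hspd1 on the minus and Hspe1 on the plus strand, and in RefSeq (GRCm38.p6) 1 start of Hspd1 (55087932) lies 216 bases before that of Hspe1 (55088148), while another Hspd1 start (55088243) lies beyond the Hspe1 start, so that the transcripts can overlap. The 215 bases between the first pair of starts (chr1:55087933-55088147) are shown because both genes fell and share them; they are given on the plus strand, from the Hspd1 start towards the Hspe1 start. Capitals mark heat shock elements, the paired letters TTCNNGAA or GAANNTTC (each reads the same on both strands) to which Hsf1 is known to bind, here 3 overlapping pairs in 18 bases:
Hspd1 to Hspe1: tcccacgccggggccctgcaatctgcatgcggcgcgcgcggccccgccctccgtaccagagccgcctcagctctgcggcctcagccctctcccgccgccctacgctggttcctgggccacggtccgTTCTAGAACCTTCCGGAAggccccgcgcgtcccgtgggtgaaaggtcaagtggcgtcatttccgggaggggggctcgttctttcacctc
Overlapping pairs make triplets, GAA, TTC and GAA (or TTC, GAA and TTC) with 2 bases between neighbours, found in the 250 bases before a start of 0.514% of 27025 RefSeq genes and of 5.56% of the 54 chaperone gene names with an entry (3 names, Hspd1, Hspe1 and Dnajb6, of which Hspd1 and Hspe1 share 1 site). A single pair was found for 14.5% of all genes and 24.1% of the chaperone names. A match describes letters and is no evidence of binding.

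Beside Hspa5 and Hsp90b1, other genes of ER folding moved in both directions. Of 26 such genes tested outside the name rule, 13 fell and 7 rose, with a median log2 change of -0.78. Calr (calreticulin) fell most, from 2429 and 3616 TPM in cMoP to 521 and 521 in Ly6Chi (-2.70 ± 0.20, limma adjusted p = 0.000519), and Creld2, Manf and Pdia4 fell by 2.27, 2.22 and 2.02. The 7 genes that rose are named here after their values were seen: Ern1, Eif2ak3 and Atf6, the stress sensors of the ER, rose by 1.38, 1.17 and 1.02, and Edem1, which directs misfolded glycoproteins to degradation, by 0.71. Sel1l and Derl1, of the same disposal route, and Xbp1, a transcription factor of the response, rose by 0.36, 0.28 and 0.26. Hspa5, Hsp90b1 and Dnajc3, an ER-resident DnaJ protein, were the chaperone genes with an ER stress element, letters known to be bound by Atf6 with the factor NF-Y (CCAAT and CCACG with 9 bases between, searched on both strands), against 0.13% of all genes. The 250 bases before the start of Hspa5 (chr2:34771840-34772089, plus strand) and Hsp90b1 (chr10:86705445-86705694, minus strand) are shown 5′ to 3′ with these elements in capitals, since both genes fell, while Dnajc3, with the same letters, went from 48.2 and 58.6 TPM to 44.6 and 42.5 and did not pass (limma adjusted p = 0.231):
Hspa5: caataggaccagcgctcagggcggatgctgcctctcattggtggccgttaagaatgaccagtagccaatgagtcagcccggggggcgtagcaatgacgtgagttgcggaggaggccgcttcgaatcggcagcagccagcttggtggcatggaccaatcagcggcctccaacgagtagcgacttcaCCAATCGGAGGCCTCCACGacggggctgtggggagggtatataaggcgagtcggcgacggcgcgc
Hsp90b1: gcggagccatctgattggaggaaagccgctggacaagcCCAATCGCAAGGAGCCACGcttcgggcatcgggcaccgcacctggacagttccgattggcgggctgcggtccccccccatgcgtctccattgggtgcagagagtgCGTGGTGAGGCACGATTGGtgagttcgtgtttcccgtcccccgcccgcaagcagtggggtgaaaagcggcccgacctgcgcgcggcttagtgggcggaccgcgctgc
Hsp90b1 has 2 such elements, 1 on either strand.

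All 7 numbered Cct genes fell. Each encodes a subunit of the cytosolic chaperonin, a double ring in which every ring holds 1 copy of each subunit and which folds actin and tubulin. Cct3 was at 313 TPM in MDP, 260.1 and 504 for the cMoP pair, 73.4 and 73.6 for the Ly6Chi pair, 86.6 for Ly6Clo and 96.2 and 88.4 for the knockout pair (log2 change -2.48 ± 0.30, limma adjusted p = 0.00222). Cct6a was at 306 TPM in MDP, 267 and 498 for the cMoP pair, 95.6 and 90.3 for the Ly6Chi pair, 84.5 for Ly6Clo and 97.8 and 89.9 for the knockout pair (-2.15 ± 0.29, limma adjusted p = 0.0031). Cct8, Cct7, Cct2, Cct5 and Cct4 fell by 1.55, 1.39, 1.25, 1.23 and 0.99. Tcp1, the remaining subunit, is not matched by the name rule and was at 394 and 559 TPM in cMoP and 182 and 181 in Ly6Chi (-1.56 ± 0.18, limma adjusted p = 0.00212). The complex holds its subunits in equal number. Of their RNA levels, the highest numbered subunit stood 1.58 to 1.71 times above the lowest in MDP and cMoP and 2.05 to 3.33 times in the monocyte libraries, with Cct5 highest and Cct3 lowest in each Ly6Chi library, controls and knockout. Cct3 and Cct4 stood at 260.1 and 242 TPM in cMoP replicate 1, 504 and 369 in cMoP replicate 2, 73.4 and 177 in Ly6Chi replicate 1, and 73.6 and 167 in Ly6Chi replicate 2.

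**Figure D3:**
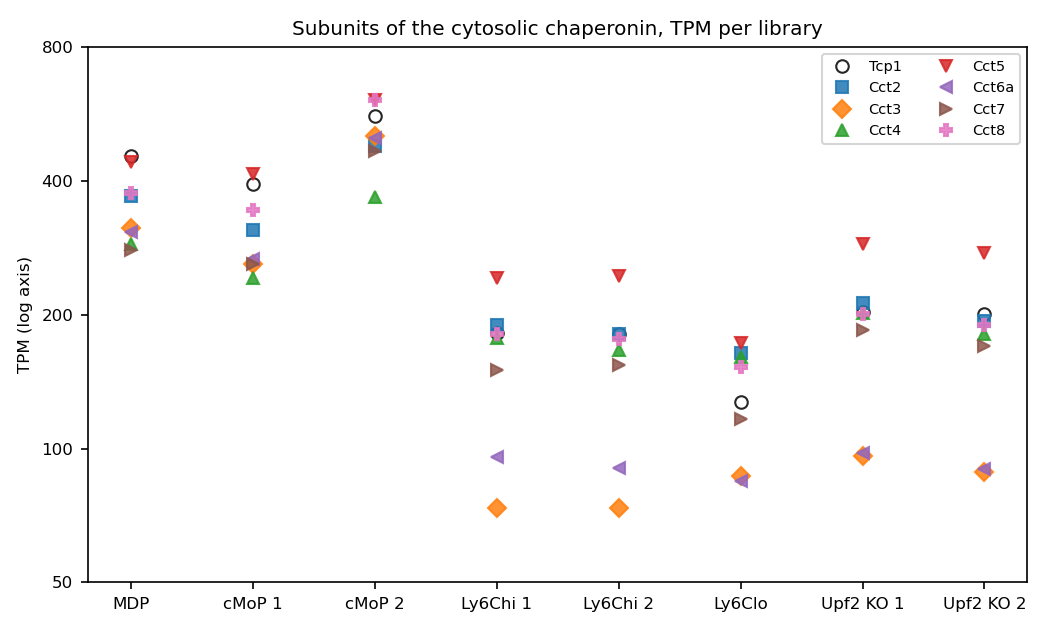
TPM (vertical log axis) of the 7 numbered subunits of the cytosolic chaperonin and Tcp1 (open circles) in each of the 8 libraries. The subunits lie close together in MDP and cMoP, and Cct3 and Cct6a drop below the others in the Ly6Chi libraries, to 73.4 and 95.6 TPM in replicate 1.

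DnaJ proteins did not move as 1 group. In class A, which works with Hsp70 in general folding, Dnaja3 (mitochondrial) and Dnaja2 fell by 1.31 and 0.80. Dnaja1 was at 246 TPM in MDP, 116 and 245 for the cMoP pair, 81.6 and 89.2 for the Ly6Chi pair, 169 for Ly6Clo and 170.0 and 139 for the knockout pair, and did not pass (-1.17 ± 0.34, limma adjusted p = 0.0548). In class B 4 of 10 rose and none fell, beside 32.3% and 23.3% of all genes. Dnajb14, a membrane protein of the ER, was at 3.18 TPM in MDP, 3.90 and 1.19 for the cMoP pair, 25.7 and 24.0 for the Ly6Chi pair, 17.1 for Ly6Clo and 10.98 and 13.6 for the knockout pair (2.79 ± 0.38, limma adjusted p = 0.00213), the largest rise of any chaperone gene in the comparison. Dnajb13, Dnajb5 and Dnajb12 rose by 1.52, 1.07 and 0.38, the first from 3.58 and 1.29 TPM in cMoP to 9.59 and 9.67 in Ly6Chi.

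Class C, the most varied in structure and function, split into 7 that fell and 6 that rose, with 12 not passing. The 52.0% called in either direction lay near the 55.5% of all genes, of which 23.3% fell and 32.3% rose. Dnajc2, which acts at the ribosome, went from 82.2 and 126 TPM in cMoP to 38.5 and 37.5 in Ly6Chi (-1.59 ± 0.22, limma adjusted p = 0.00381). Dnajc6, auxilin, which uncoats clathrin vesicles in neurons, was at 5.72 TPM in MDP, 2.59 and 1.13 in cMoP and at most 0.16 in every monocyte library (-1.51 ± 0.27, limma adjusted p = 0.00942). Dnajc9, a histone chaperone, was at 155 TPM in MDP, 109 and 106 for the cMoP pair, 58.4 and 54.3 for the Ly6Chi pair, 22.5 for Ly6Clo and 73.1 and 68.4 for the knockout pair (-1.12 ± 0.12, limma adjusted p = 0.00197). Its levels in MDP, cMoP, Ly6Chi and Ly6Clo did not overlap, in falling order, but the first step did not pass. Dnajc12, Dnajc11, Dnajc25 and Dnajc19 fell by 1.23, 0.88, 0.85 and 0.74. Dnajc4, Dnajc14 and Dnajc5 (the cysteine string protein of secretory vesicles) rose by 0.98, 0.92 and 0.81, and Dnajc16, Dnajc7 and Dnajc13 by 0.47, 0.28 and 0.27.

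The small heat shock proteins were low. Hspb11, a component of intraflagellar transport that bears the family name, rose from 6.30 and 4.73 TPM in cMoP to 19.1 and 16.6 in Ly6Chi (1.35 ± 0.21, limma adjusted p = 0.00246), and Hspb6 lay between 5.01 and 7.58 TPM in all libraries. Of the genes that share only the name, Hspbp1, a nucleotide exchange factor of Hsp70, fell, from 55.8 and 76.8 TPM to 25.2 and 26.4, and Hspbap1 rose by 0.49.

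Partners of the chaperones were counted from lists. Of 22 cochaperones of Hsp90 and Hsp70, 13 fell and 3 rose, with a median log2 change of -0.84. Bag2, an exchange factor and brake of Hsp70, was at 15.3 and 24.3 TPM in cMoP and 0.32 and 0.33 in Ly6Chi (-4.13 ± 0.28, limma adjusted p = 0.000365). Fkbp4, Ppid and Ptges3 (p23), which bind Hsp90, fell by 2.52, 2.03 and 1.97, while Bag3 and Bag6 rose by 0.66 and 0.46. Among 16 genes of mitochondrial import and quality control 12 fell and none rose (median -1.29), led by the protease subunit Clpp (-2.14), the mitochondrial Hsp90 Trap1 (-1.94), Timm23 (-1.56) and Tomm20 (-1.46). Of 10 partners of the cytosolic chaperonin, 4 fell (Tcp1, Pfdn1, Pfdn2 and Pfdn6) and 2 rose (Pdcl and Pfdn5). Of the heat shock factors, Hsf1 fell from 39.9 and 41.1 TPM to 25.9 and 28.9 (-0.75 ± 0.13, limma adjusted p = 0.0153) and Hsf2 rose from 8.80 and 7.73 to 19.4 and 17.4 (0.87 ± 0.16, limma adjusted p = 0.00351).

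The inducible Hsp70 genes differed widely between replicates. Hspa1a and Hspa1b are intronless neighbours on chromosome 17 (34969190 to 34972156 and 34956436 to 34959238, mm10, minus strand) whose longest reading frames are identical at 98.0% of positions, so the split of reads between them is uncertain. Hspa1a was at 66.1 TPM in MDP, 109 and 57.3 for the cMoP pair, 19.6 and 81.3 for the Ly6Chi pair, 226 for Ly6Clo and 598 and 31.8 for the knockout pair. Hspa1b was at 139.9 TPM in MDP, 152 and 98.4 for the cMoP pair, 20.7 and 97.6 for the Ly6Chi pair, 464 for Ly6Clo and 638 and 39.6 for the knockout pair. Within the knockout, replicate 1 stood 18.8 and 16.1 times above replicate 2 for Hspa1a and Hspa1b, and within Ly6Chi replicate 2 stood 4.14 and 4.71 times above replicate 1. Their pooled replicate SDs of 1.93 and 1.87 on the log2 scale rank 32 and 36 among the 13126 genes tested. Neither passed limma's test in any comparison (adjusted p = 0.58 and 0.399 in Ly6Chi against cMoP).

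The promoters of this pair are shown because both genes had their highest level in the same library and their lowest in the same library: the 250 bases before the start of Hspa1a (chr17:34972157-34972406, minus strand) and Hspa1b (chr17:34959239-34959488, minus strand) are identical at 98.8% of positions, and both hold 1 heat shock pair (capitals) beginning 104 bases before the start:
Hspa1a: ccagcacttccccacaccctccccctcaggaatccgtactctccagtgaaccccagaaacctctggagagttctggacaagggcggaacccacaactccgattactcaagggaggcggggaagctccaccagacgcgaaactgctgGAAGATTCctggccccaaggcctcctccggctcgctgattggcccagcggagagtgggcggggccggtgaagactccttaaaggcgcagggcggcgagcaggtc
Hspa1b: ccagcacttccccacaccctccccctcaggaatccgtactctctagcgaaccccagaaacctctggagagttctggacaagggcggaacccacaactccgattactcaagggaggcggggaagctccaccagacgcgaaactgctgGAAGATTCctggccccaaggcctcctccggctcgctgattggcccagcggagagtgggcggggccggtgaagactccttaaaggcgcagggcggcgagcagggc
The 12 immediate early genes differed between the same replicates, being higher in Ly6Chi replicate 2 for 12 of 12 (sums of 2838 and 5121 TPM in replicates 1 and 2) and in knockout replicate 1 for 10 of 12 (4499 and 3164 TPM). In cMoP, replicate 1 was higher for 12 of 12 (1561 and 465 TPM), as it was for Hspa1a and Hspa1b. The part of cell handling in the levels of Hspa1a and Hspa1b was not tested. Hsph1, the Hsp110 partner of Hsp70, followed another order: 109 TPM in MDP, 42.7 and 137 for the cMoP pair, 14.9 and 15.6 for the Ly6Chi pair, 68.5 for Ly6Clo and 54.2 and 31.6 for the knockout pair (log2 change of Ly6Chi against cMoP -2.45 ± 0.55, limma adjusted p = 0.0169). Dnajb1, the inducible class B partner of Hsp70, lay between 29.9 and 59.2 TPM in all libraries and passed in no comparison. Like Hspa1a and Hspa1b, it was lowest in Ly6Chi replicate 1 and highest in knockout replicate 1.

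**Figure D4:**
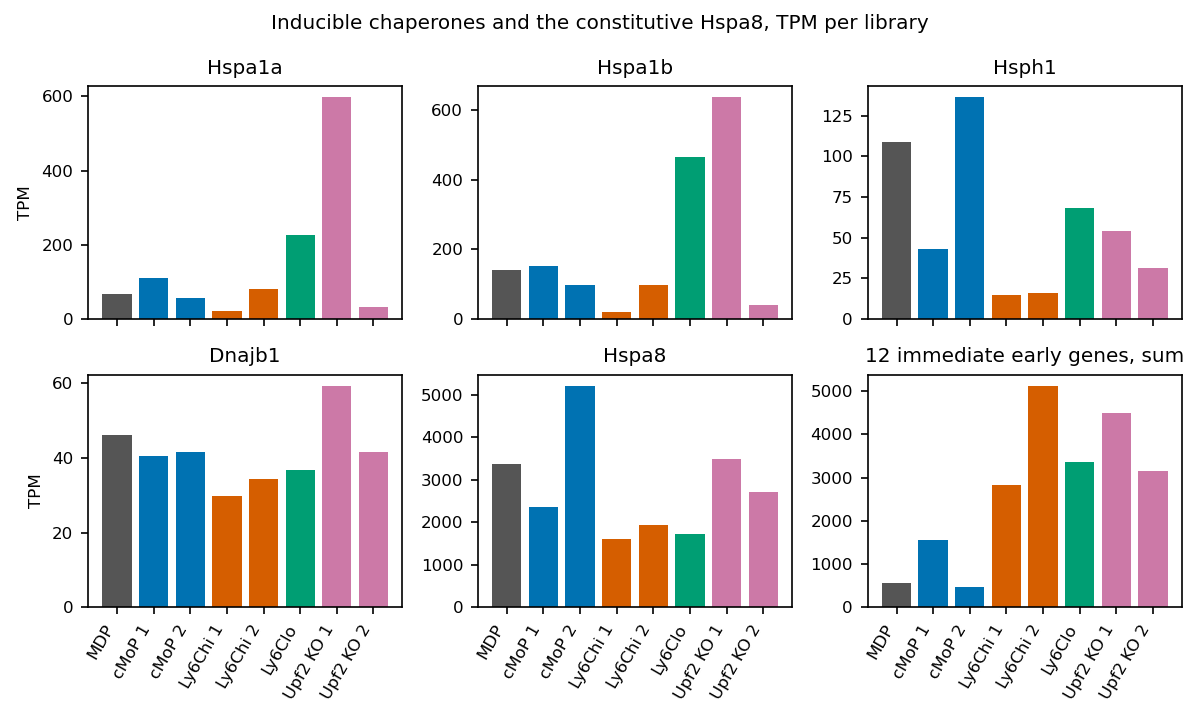
TPM (vertical axes, linear, starting at 0) of Hspa1a, Hspa1b, Hsph1, Dnajb1 and Hspa8 and the summed TPM of 12 immediate early genes, 1 bar per library. Hspa1a and Hspa1b reach 598 and 638 TPM in knockout replicate 1 and 31.8 and 39.6 in knockout replicate 2.

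Between MDP and cMoP no chaperone gene passed limma's test (smallest adjusted p = 0.0539, Dnajc12), where 3.87% of all genes did; the median gene moved by -0.28. At an unadjusted p under 0.05 limma gave 11 of 67 chaperones (26.9% of all genes), and edgeR's test on summed spliced reads called 1 of 56, also Dnajc12, as higher. This gene was at 3.01 TPM in MDP and 12.3 and 8.32 in cMoP (1.76 ± 0.29). Hspa5, Hsp90b1 and Dnajb11, all of the ER, had log2 changes of 1.02, 0.92 and 0.92 that did not pass. Of the 67 chaperones, 39 were higher in cMoP replicate 2 and 28 in replicate 1, a count not made for all genes. The median gene moved by -0.40 from MDP to cMoP replicate 2 alone and by -0.19 to replicate 1 alone. Without cMoP replicate 1, 15 chaperones were called higher and 9 lower than in MDP, where 8.11% and 29.4% of all genes were. Without cMoP replicate 2, 1 was higher and 1 lower, beside 2.74% and 3.34% of all genes. Of the pathway genes, Ero1l, Xbp1 and P4hb of the ER list rose (1.44, 1.11 and 1.09).

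From Ly6Chi to Ly6Clo (1 library, its spread taken from the other groups) 3 of 67 chaperones passed, 1 higher and 2 lower, against 13% of all genes (5.9% higher, 7.12% lower), with the median gene moving by 0.04. Dnajb2, a DnaJ protein best known from neurons, was at 1.45 and 1.28 TPM in Ly6Chi and 8.43 in Ly6Clo (1.96 ± 0.29, limma adjusted p = 0.0102). Dnajc9 went from 58.4 and 54.3 to 22.5 TPM (-1.32 ± 0.14, limma adjusted p = 0.00383). Dnajc15, a mitochondrial import factor also called methylation-controlled J protein, went from 98.2 and 96.2 to 49.2 TPM (ratio of Ly6Clo to the Ly6Chi mean 0.506, limma adjusted p = 0.0243). Without Ly6Chi replicate 1 or 2, no chaperone was called higher and 1 lower, where 1.98% and 2.49% of all genes were without replicate 1. Without cMoP replicate 1 or 2, 4 were higher and 9 or 8 lower, where 13.6% and 14.5% of all genes were without replicate 1. With 1 knockout library left out, whichever it was, fewer calls were made than in the main fit, among the chaperones as among all genes. None of the Hsp90, Hsp60/Hsp10 or Cct genes passed, and Hsph1, at 68.5 TPM against 14.9 and 15.6, did not (2.06 ± 0.67, limma adjusted p = 0.104). Markers of other cells were also higher in Ly6Clo than in both Ly6Chi libraries. Neutrophil markers summed to 1157 TPM against 337 and 451, though Mmp8 among them was lower (28.2 against 151 and 145). Dendritic cell markers summed to 178 against 19.1 and 19.4, of which Cd209a alone made up 168 against 16.6 and 16.9. Xcr1 among them was lower (0.09 against 0.14 and 0.13). Erythroid markers summed to 191 against 21.3 and 113, and B cell markers to 51.9 against 18.5 and 18.6. Their part in these values was not tested.

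With Upf2 knocked out in Ly6Chi monocytes, no chaperone gene passed limma's test (smallest adjusted p = 0.336), where 1 gene in 13126, 0.00762%, passed, and the median gene moved by -0.12. Unadjusted p-values under 0.05 were found for 8 of 67 chaperones (14.6% of all genes), and edgeR on spliced reads called 0 of 56. Both knockout libraries lay above both controls for 29 chaperones and below both for 23, against 22.8% and 45.5% of all genes. Dnajb9, an ER DnaJ protein induced in the unfolded protein response, was at 23.3 and 26.1 TPM in control and 38.7 and 36.6 in knockout Ly6Chi (0.71 ± 0.17, limma adjusted p = 0.336). Hspa5 stood at 388 and 389 against 680.0 and 604 TPM (0.84 ± 0.28, limma adjusted p = 0.338), Dnaja1 at 81.6 and 89.2 against 170.0 and 139, and Hspa8 at 1617 and 1943 against 3496 and 2706. None of these ranges overlapped, and none of the changes passed. The 3′ lean was greater in both knockout libraries (0.80 and 0.56 against 0.32 and 0.38), and its part was not tested.

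Intron retention was measured in the same libraries. The 67 genes hold 678 introns common to all tables, of which 521 are free of overlap marks, 457 have at least 20 boundary and spliced reads together in every library, and 339 of these, in 49 genes, have at least 20 boundary reads over all libraries and were tested. The retention ratio is the read depth over an intron (the share of it covered, where depth is under 1) divided by that value plus the spliced reads. Most chaperone introns had low ratios: a ratio of at least 0.1 was found for 11 of 457 introns in MDP (2.41%, 95% Wilson interval 1.35 to 4.26%), 2.63% and 1.53% for the cMoP pair, 2.63% and 2.84% for the Ly6Chi pair, 3.06% for Ly6Clo and 2.19% and 1.31% for the knockout pair. Over all 65553 measured introns the share was 6.00% in MDP, 4.38% and 1.52% for the cMoP pair, 6.04% and 5.72% for the Ly6Chi pair, 8.11% for Ly6Clo and 3.18% and 3.76% for the knockout pair. The share of all introns lay above the chaperone interval in MDP, both Ly6Chi controls, Ly6Clo and knockout replicate 2. It lay within the interval in cMoP replicate 1 (1.51 to 4.53%), cMoP replicate 2 (0.74 to 3.13%) and knockout replicate 1 (1.19 to 3.98%). Intervals cover counting error only.

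Where no library had fewer than 10 spliced reads for an intron, the 6 with the highest mean ratio were in DnaJ genes. That minimum left out an intron of a non-coding Dnajb4 transcript (chromosome 3, 152193619 to 152195049) with a mean ratio of 0.2405 and 0 spliced reads in at least 1 library. In Dnajb6, intron 6 of 6 of a coding transcript (chromosome 5, 29756339 to 29757547, mm10, 1209 bases) had ratios of 0.425 in MDP, 0.279 and 0.0804 for the cMoP pair, 0.294 and 0.248 for the Ly6Chi pair, 0.175 for Ly6Clo and 0.142 and 0.180 for the knockout pair. These ratios rested on 24 to 47 spliced and 4 to 50 boundary reads a library, while Dnajb6 as a whole stood at 88.5 to 158 TPM. The intron lies beside intron 1 of 2 of a non-coding Dnajb6 transcript (29754592 to 29756233), whose mean ratio over the libraries was higher, 0.288. Dnajc4 intron 3 of 5 (chromosome 19, 6989585 to 6989680, 96 bases, in the coding region) had ratios of 0.223 in MDP, 0.187 and 0.185 for the cMoP pair, 0.302 and 0.213 for the Ly6Chi pair, 0.375 for Ly6Clo and 0.114 and 0.164 for the knockout pair. The knockout libraries were the lowest and Ly6Clo the highest. Over all measured introns, the share at 0.1 or more was also lower in both knockout libraries than in both controls, and highest in Ly6Clo. As deposited, each knockout library lists 204370 introns and each of the others 205984. The part of this difference in the ratios was not tested. Boundary reads of this Dnajc4 intron lay mostly at the left border, with 349 left and 86 right in control and 352 and 64 in knockout Ly6Chi. Dnajc16 intron 13 of 14 (chromosome 4, 141764739 to 141766483, in the coding region) had ratios of 0.236 in MDP, 0.143 and 0.0599 for the cMoP pair, 0.232 and 0.285 for the Ly6Chi pair, 0.346 for Ly6Clo and 0.177 and 0.199 for the knockout pair. The first intron of Dnajb5, in the 5′ untranslated region, averaged 0.200 and 0.177 in its 2 annotated forms. Both forms had 10 to 27 spliced reads a library and were not among the introns tested.

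**Figure D5:**
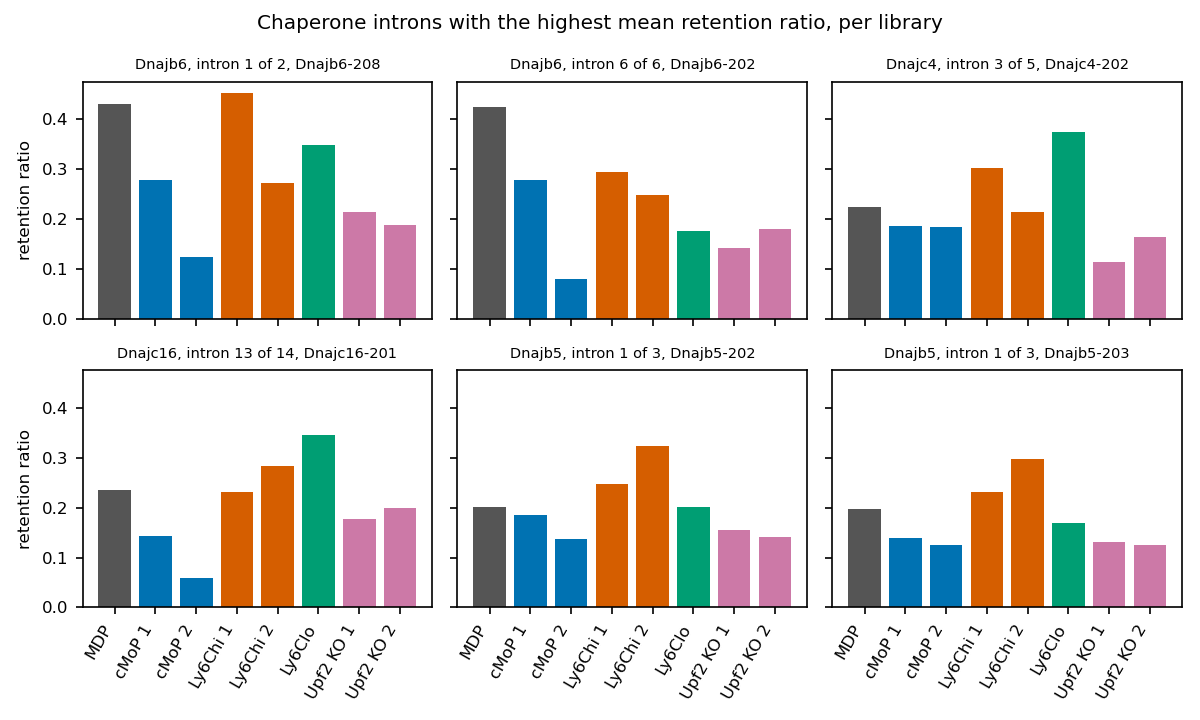
Retention ratio (vertical axes, from 0, no unit) of the 6 chaperone introns with the highest mean ratio where no library had fewer than 10 spliced reads, 1 bar per library, coloured by group. All lie in DnaJ genes, and for the second Dnajb6 intron cMoP replicate 2 (0.0804) is the lowest bar and MDP (0.425) the highest.

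Retention was tested by edgeR as the change of boundary reads (reads crossing an exon-intron border) relative to spliced reads. No chaperone intron passed in any of the 4 comparisons, against 0.0145% of 48132 introns for Ly6Chi against cMoP, 0.00208% for the knockout and 0 for the others. At an unadjusted p under 0.05 the chaperone introns numbered 38 for cMoP against MDP (11.2%, against 8.35% of all introns tested), 29 for Ly6Chi against cMoP (8.55% against 10.9%), 13 for Ly6Clo against Ly6Chi (3.83% against 4.97%) and 22 for the knockout (6.49% against 6.94%). DESeq2 called 0 in each. Boundary reads per 100 spliced reads over the tested chaperone introns were 4.54 in MDP, 6.11 and 3.70 for the cMoP pair, 5.65 and 6.04 for the Ly6Chi pair, 5.95 for Ly6Clo and 6.36 and 4.71 for the knockout pair. cMoP replicate 2 was the lowest of the 8 libraries, as it was over all tested introns (4.44, against 6.45 in replicate 1). Without cMoP replicate 1, 57 of the 339 chaperone introns were called higher and 0 lower in Ly6Chi than in cMoP, where 14.1% and 0.374% of all introns were. In the same setting 4 were higher and 43 lower in cMoP than in MDP, where 0.291% and 9.98% of all introns were. Without cMoP replicate 2, 0 were called in both comparisons.

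Introns of 2 abundant chaperones, chosen after their values were seen, show the depth at which splicing was read. Hspa8 intron 4 of 8 (chromosome 9, 40802892 to 40802973, 82 bases) had 13053 spliced reads in MDP, 12521 and 27134 for the cMoP pair, 6340 and 8726 for the Ly6Chi pair, 6538 for Ly6Clo and 15366 and 11411 for the knockout pair, with ratios between 0.00856 and 0.0299. Cct3 intron 3 of 13 (chromosome 3, 88300851 to 88300928, 78 bases) had ratios of 0.0377 in MDP, 0.0391 and 0.0164 for the cMoP pair, 0.0596 and 0.0497 for the Ly6Chi pair, 0.118 for Ly6Clo and 0.0428 and 0.0559 for the knockout pair. Its Ly6Clo value was the highest, on 342 spliced reads. Spliced reads there were 1499 and 2606 in cMoP and 384 and 400 in Ly6Chi, the order of the TPM of Cct3.

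Intron 1 of 18 of Hspa4 (chromosome 11, 53292315 to 53300059, mm10, 7745 bases, in the coding region) was the chaperone intron with the smallest p in the knockout. Reads across its right border, the 5′ splice site on this minus-strand gene, numbered 14 in MDP, 34 and 19 for the cMoP pair, 7 and 11 for the Ly6Chi pair, 3 for Ly6Clo and 33 and 24 for the knockout pair, on 240 and 285 spliced reads in control and 169 and 211 in knockout Ly6Chi. At the other border there were 0 to 2 reads in every library. Boundary reads per 100 spliced reads were 3.98 ± 0.326 in control and 16.3 ± 6.27 in knockout Ly6Chi (SD, n = 2), a log2 change of 1.97 ± 0.53 that did not pass (edgeR adjusted p = 0.716). With boundary and spliced reads scaled separately by TMM it passed, as did 0.129% of all introns (2.32 ± 0.46, edgeR adjusted p = 0.0186). The retention ratio, which rests on depth over the whole intron, was 0.00208 and 0.00177 in control and 0.00226 and 0.00139 in knockout Ly6Chi.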

How the data were processed

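RNA from 8 libraries was sequenced as stranded, polyadenylated, paired-end reads. The submitters' processing notes name FastQC, Trimmomatic, STAR 2.5.2a, RSEM and mm10. The gene table deposited by the authors is named for another unit, but its columns sum to 1000000 (999999 in 1), so it was taken as TPM. Per the labels, the intron tables give, as deposited by the authors, whole-number counts of spliced and boundary reads, coverage signal over each intron, and the retention ratio as a fraction. The ratio was recomputed within 0.0001 for at least 96.7% of introns in each library.

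Genes with at least 1 TPM in 2 libraries (13126) were tested with limma 3.58.1 on log2(TPM + 1), and 48132 introns with edgeR 4.0.16 (quasi-likelihood) on boundary against spliced reads, in R 4.3.3. Each fit held all 8 libraries, and p-values were Benjamini-Hochberg adjusted over all features and called under 0.05. DESeq2 1.42.0 and edgeR on spliced reads summed per gene were alternatives, beside other filters, scalings and left-out replicates. Tables were prepared in Python 3.11.15 with pandas 2.3.3, and the fits were tested on simulated data. The genes and lists were chosen with earlier results of these data known. Genes named were those past the test with the largest changes, the main chaperone of each system whatever it did, and up to 4 per pathway list. Any others were chosen after their values were seen. Sequences are from RefSeq (GRCm38.p6), where 54 of 66 gene names had an entry. A single item of the lists is not reported here by name.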

Additional observations from a re-analysis of the deposited data

How the results depend on the processing

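With 1 or 2 libraries a group, the spread between cMoP replicates limits most statements. From cMoP to Ly6Chi, 13 chaperones rose and 29 fell. The number higher was 7 with no filter on low values, 7 with median centring, 8 with only the 2 groups compared and 7 by edgeR on spliced reads. Of all genes tested, 14.3%, 25.6%, 27.1% and 27.4% were higher in these settings, against 32.3% in the main fit. Leaving out 1 replicate gave 4 to 15 higher and 14 to 36 lower, and 14 of the 29 and 4 of the 13 were called under every setting. Every setting here means, for each gene, every setting that tested it. EdgeR on spliced reads tested 56 of the 67 chaperones, and the same count was not made for all genes. From Ly6Chi to Ly6Clo, only the 2 groups compared gave 6 higher and 7 lower, beside 12.2% and 12.9% of all genes. By edgeR on spliced reads 1 was lower, beside 6.29% of all genes. Here too the counts moved with 1 replicate left out, for the chaperones as for all genes. Of all genes, from MDP to cMoP, 3.11% were higher with median centring and 2.29% by edgeR on spliced reads. With no filter 8.2% of all genes were lower, and shares with 1 cMoP replicate left out are given above. The chaperone calls were few beside these shares in the settings that kept all libraries. From MDP to cMoP, median centring and edgeR on spliced reads gave 1 higher each, no filter 1 lower, and leaving out 1 replicate 0 to 15 higher and 0 to 9 lower. Called chaperone introns with 1 replicate left out were 0 to 47 (cMoP against MDP), 0 to 57 (Ly6Chi against cMoP), 0 to 1 (Ly6Clo) and 0 to 2 (knockout), and TMM scaling gave 1 in the knockout. Each fit with 1 replicate left out that called chaperone introns also called introns of other genes. The counts from these fits therefore do not single out the chaperones. TMM scaling called 0.129% of all introns in the knockout. The causes of these differences between settings were not tested, beyond fewer samples or genes in a fit.

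Replicate numbers were not shown to pair the samples: deviations of same-numbered samples correlated at 0.063 (cMoP and Ly6Chi), -0.136 (cMoP and knockout) and -0.13 (Ly6Chi and knockout) over genes. With the replicate block, 8 chaperones rose from cMoP to Ly6Chi, beside 28.2% of all genes. From Ly6Chi to Ly6Clo 1 fell, beside 4.75% of all genes.

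Changes that turned direction are given here before the shift by the median gene. For cMoP against MDP, Dnaja1 was 0.04 and Dnajb1 0.76 by edgeR on spliced reads, and with median centring Dnajb1 was 0.22 and Hspa1b 0.19. For Ly6Clo against Ly6Chi, Dnajb1 was -0.04 by edgeR on spliced reads. With 1 replicate left out, the changes of cMoP against MDP ran from -0.25 to 0.38 for Cct2, -0.27 to 0.69 for Cct3, -0.25 to 0.36 for Cct4, -0.09 to 0.46 for Cct5, -0.20 to 0.70 for Cct6a, -0.10 to 0.74 for Cct7 and -0.12 to 0.70 for Cct8. They ran from -0.36 to 0.59 for Hsp90aa1, -0.11 to 0.28 for Hsp90ab1, -0.20 to 0.71 for Hspa1a, -0.50 to 0.12 for Hspa1b, -0.51 to 0.63 for Hspa8, -0.30 to 0.42 for Hspa9, -0.35 to 0.98 for Hspd1, -0.33 to 0.82 for Hspe1 and -1.33 to 0.32 for Hsph1. The change of Hspa1a, Ly6Chi against cMoP, ran from -1.95 to 0.04. For Ly6Clo against Ly6Chi Hspa8 ran from -0.17 to 0.09 and Hspe1 from -0.10 to 0.03. For the knockout Cct6a ran from -0.05 to 0.07, Hspa1a from -0.33 to 3.86, Hspa1b from -0.19 to 3.79 and Hspa9 from -0.03 to 0.06.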
